A study of Mus musculus with 6 samples.

Results

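Levels of 10 genes that set the shape and the number of mitochondria were compared between livers of WT mice and livers of CgA-KO mice, which lack the prohormone Chromogranin A (CgA). The genes were taken by symbol from the deposited count table of 32212 genes. They are 3 fission genes (Dnm1l, Fis1, Mff), 3 fusion genes (Mfn1, Mfn2, Opa1) and 4 regulators of biogenesis (Tfam, Nrf1, Ppargc1a, Sirt1). All 10 were in the table, and all 10 passed the filter on low counts. The libraries came from 3 WT and 3 CgA-KO mice, each library from the liver of 1 mouse. All mice were 2 yr old C57BL/6 males on normal chow (NCD) under a 12 hr dark and light cycle, and the labels give no further treatment. The tissue was whole liver, so every cell type of the organ could contribute in both groups. In bulk liver, fewer cells of a type and less RNA per cell cannot be told apart.

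Mitochondria fuse and divide continually. For division, the GTPase Drp1, which Dnm1l encodes, is drawn from the cytosol to the outer membrane by adaptors such as Mff and assembles into a ring that constricts the organelle, while mitofusins join outer membranes and Opa1 joins inner membranes. New mitochondria need nuclear and mitochondrial genes to be expressed in step. The coactivator PGC-1α, the product of Ppargc1a, works with nuclear factors such as NRF1 and the ETS factor GABP. These factors act on Tfam and on respiratory chain genes, and Tfam is a packaging and transcription factor of mitochondrial DNA. In liver, PGC-1α also drives gluconeogenic genes during fasting, and the deacetylase Sirt1 acts on it.

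None of the 10 genes passed the adjusted test between the genotypes, and Ppargc1a came closest. With p from the quasi-likelihood test of edgeR, adjusted by the Benjamini-Hochberg procedure across the 13867 genes that passed the filter, 0 of 10 were called at an adjusted p under 0.05, whereas 12.4% of all genes were (8.60% higher and 3.84% lower in CgA-KO). At an unadjusted p under 0.05 the count was 1 of 10, Ppargc1a, against 29.1% of all genes. DESeq2 and limma-voom also called 0 of 10, with Ppargc1a the gene of lowest p in both. The 3 CgA-KO livers lay wholly apart from the 3 WT livers for 3 of 10 genes, Dnm1l and Ppargc1a above and Fis1 below, against 33.6% of all genes (19.0% above and 14.6% below). The estimate was higher in CgA-KO for 4 genes and lower for 6. Their median log2 fold change was -0.20, and all genes had -0.01. The median size of the difference, without sign, was 0.33 for the 10 genes and 0.37 for all genes. Levels are given as CPM, counts per 1000000 counts of a library after scaling with TMM factors, with mean ± SD over 3 livers, and differences are CgA-KO minus WT on the log2 scale.

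**Figure D1:**
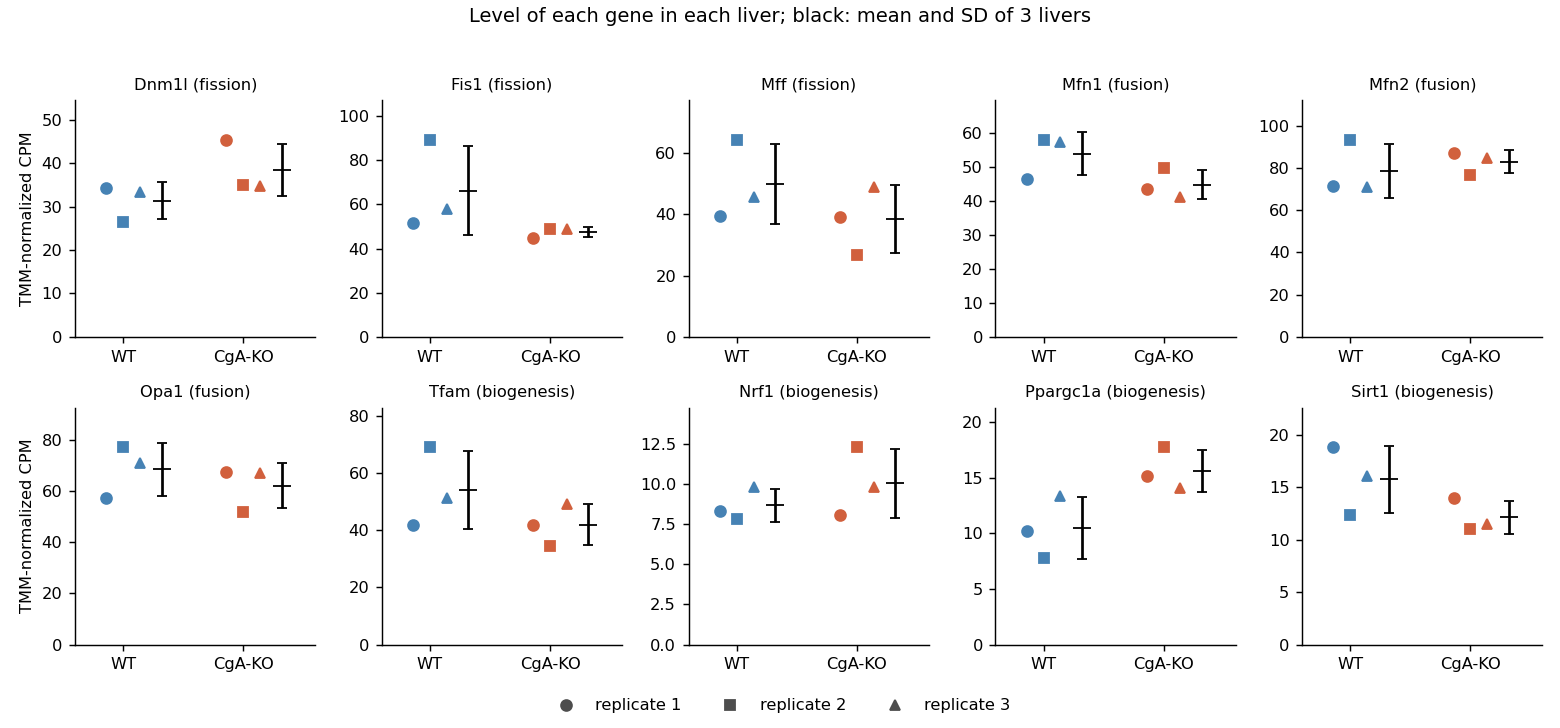
Each panel plots 1 gene, with TMM-normalized CPM from 0 on the vertical axis, 1 point per liver (WT blue, CgA-KO orange, the symbol giving the replicate number) and the mean and SD of 3 livers in black. The genotypes do not overlap for Dnm1l, Fis1 and Ppargc1a and overlap for the other 7 genes. The second WT liver is the highest of all 6 for Fis1, Mff, Mfn1, Mfn2, Opa1 and Tfam under TMM scaling. Its TMM factor, 0.756, was the lowest of the 6 and raises its CPM, so such ranks can depend on the scaling.

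Before the results, the libraries were compared. Libraries held 10558616 to 31087453 counts, and single counts of the 10 genes ran from 93 (Nrf1 in the first WT library) to 2420. TMM factors lay between 0.934 and 1.12 in 5 libraries and at 0.756 in the second WT library. Chga itself had 0 counts in all 6 libraries, WT included, and so cannot check the genotype labels. Hepatocyte markers summed to 51670 to 87080 CPM in WT and 43282 to 73224 CPM in CgA-KO, with 0 of 9 measured markers called, so hepatocyte RNA was abundant in every library. Markers of other cells were higher in CgA-KO for Kupffer cells (9 of 11 called, 142 to 344 CPM in WT and 1441 to 2061 CPM in CgA-KO), for stellate cells (4 of 7, 187 to 246 and 352 to 502 CPM), for lymphocytes (4 of 8, 5.06 to 51.8 and 27.3 to 98.9 CPM) and for monocytes and neutrophils (5 of 7 tested, 7.20 to 13.8 and 49.3 to 418 CPM). Of the last list, Retnlg, Ngp and Mpo were at 0 in some libraries. Endothelial markers gave 2 called higher and 1 lower of 8 (101 to 125 CPM in WT and 118 to 172 CPM in CgA-KO), bile duct markers 0 of 5 (19.2 to 30.6 and 18.6 to 73.6 CPM) and erythroid markers 1 lower of 3 (87.4 to 202 and 177 to 257 CPM). The part of these cells in the differences given here was not tested.

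Sequences upstream of the start sites are shown for Ppargc1a and Fis1, at the ends of the range of differences, and for Sirt1, Opa1, Mfn1 and Tfam, which hold a motif upstream of the start. Dnm1l held its match after the start and is not printed. RefSeq promoter windows of GRCm38.p6, from 250 bases before to 50 bases after each start, were found for all 10 genes. They were searched on both strands for the 10-base NRF1 motif (as in the Opa1 sequence printed here in capitals, with any base at position 6), CCGGAAG (the ETS motif of GABP), CACGTG (the E-box of CLOCK and BMAL1) and TGACGTCA (the cyclic AMP element). No matches of different motifs overlapped in these genes. Ppargc1a had the largest increase in the estimate, and its stretch, chr5:51567727-51567975 on the minus strand, held none of the 4 motifs. Fis1 had the largest decrease in the estimate, and its stretch, chr5:136953025-136953274 on the plus strand, held the ETS motif, in capitals. The Sirt1 stretch, chr10:63339051-63339285 on the minus strand, held the E-box at 2 places, in capitals.
Ppargc1a: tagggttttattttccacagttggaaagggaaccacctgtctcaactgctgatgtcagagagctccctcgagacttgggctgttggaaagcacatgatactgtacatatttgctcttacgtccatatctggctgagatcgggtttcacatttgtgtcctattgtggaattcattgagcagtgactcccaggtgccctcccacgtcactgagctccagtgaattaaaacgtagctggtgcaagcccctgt
Fis1: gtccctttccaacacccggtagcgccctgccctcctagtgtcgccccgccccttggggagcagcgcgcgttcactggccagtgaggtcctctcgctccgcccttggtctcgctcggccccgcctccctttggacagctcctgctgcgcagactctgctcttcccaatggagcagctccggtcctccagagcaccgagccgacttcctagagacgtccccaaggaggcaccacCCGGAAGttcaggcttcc
Sirt1: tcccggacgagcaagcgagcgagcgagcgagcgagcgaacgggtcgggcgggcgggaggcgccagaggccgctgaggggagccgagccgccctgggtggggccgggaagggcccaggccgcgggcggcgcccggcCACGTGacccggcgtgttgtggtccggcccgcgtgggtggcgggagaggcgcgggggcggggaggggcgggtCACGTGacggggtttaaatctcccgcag

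Short stretches of 30 bases around single matches are given for Opa1, Mfn1 and Tfam, whose estimates were all lower in CgA-KO without passing the test. Opa1 (chr16:29579265-29579294, plus strand) held the NRF1 motif, starting 59 bases before its start site. Mfn1 (chr3:32529427-32529456, plus strand) and Tfam (chr10:71238073-71238102, minus strand) held the ETS motif, starting at 44 and 47 bases before the start. Of these 3 matches only that of Tfam lay in an annotated GENCODE exon. The capitals mark the match.
Opa1: gtggctccccGCGCATGCGCatgtcatccg
Mfn1: gatccgaagcgCCGGAAGtagccgccccta
Tfam: cctgccgcggaCCGGAAGtccgggcttccc
The ETS motif was in a window of 4 of the 10 genes (Dnm1l, Fis1, Mfn1, Tfam), where 9.93% of the 27018 genes with a window held it. Those 27018 genes were not limited to genes that passed the filter on low counts, as all 10 did. For the Dnm1l window with the match, the bases just after the start were not found in a GENCODE transcript of Dnm1l. A gene was counted if any of its windows held the motif, and some genes, Dnm1l and Fis1 among them, had more than 1 window. Of all 32841 windows, 8.86% held the ETS motif. The NRF1 motif was in 1 of 10 (Opa1) against 5.19% of all genes, the E-box in 1 of 10 (Sirt1) against 8.09%, and the cyclic AMP element in 0 of 10 against 2.03%. In the lists of other pathway genes described further on, the ETS motif was in 10 of 17 genes for copying and transcribing mitochondrial DNA (58.8%). It was in 6 of 14 other fusion and inner membrane genes (42.9%) and 3 of 9 other fission genes (33.3%). Of other biogenesis regulators 5 of 18 held it (27.8%), and of mitophagy genes 2 of 12 (16.7%). The E-box was in 3 of 9 other fission genes (33.3%) and 3 of 14 other fusion and inner membrane genes (21.4%). In the remaining lists it was in 0 to 1 gene. The 4 genes with the ETS motif did not share a direction: the estimate was higher in CgA-KO for Dnm1l and lower for Fis1, Mfn1 and Tfam. These are matches of letters in a window, not mapped binding sites.

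Among the fission genes, the motor and its partners had estimates of opposite sign, and none passed the test. Dnm1l, on chromosome 16 of GRCm38 from 16312230 to 16358959, encodes Drp1. Per liver it measured 34.3, 26.5 and 33.4 CPM in the WT livers and 45.4, 35.0 and 34.8 CPM in the CgA-KO livers. All 3 CgA-KO livers lay above all 3 WT livers, by a margin of under 1 CPM at the closest, with the first CgA-KO liver well above the rest. Mean levels were 31.4 ± 4.29 and 38.4 ± 6.06 CPM, and the log2 fold change was 0.29 (SE 0.188, 95% interval -0.13 to 0.72, edgeR adjusted p = 0.343). An exact two-sided permutation test over livers gave p = 0.1, the smallest that 3 against 3 allows. The estimate was 0.18 without the second WT liver and also 0.18 without the first CgA-KO liver. An antisense gene shares 4.67% of the exon bases of Dnm1l.

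Fis1, on chromosome 5 from 136953275 to 136966234, encodes a small tail-anchored protein of the outer membrane. It was at 51.5, 89.3 and 58.2 CPM in WT and 44.8, 49.0 and 48.9 CPM in CgA-KO. The CgA-KO livers were close together and all below WT, while the second WT liver stood far above the other two. The spread was 30.5% of the mean in WT and 5.02% in CgA-KO. Mean levels were 66.3 ± 20.2 and 47.6 ± 2.39 CPM, a log2 fold change of -0.48 (SE 0.228, 95% interval -0.999 to 0.04, edgeR adjusted p = 0.201), and the exact permutation test gave p = 0.1. Without the second WT liver the log2 fold change was -0.21 (edgeR adjusted p = 0.480).

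Mff, on chromosome 1 from 82724890 to 82752394, encodes the adaptor that brings Drp1 to the outer membrane. Per liver it measured 39.5, 64.3 and 45.7 CPM in WT and 39.3, 26.8 and 48.9 CPM in CgA-KO. The genotypes overlapped, with the highest value in the second WT liver and the lowest in the second CgA-KO liver. The log2 fold change was -0.38 (SE 0.265, 95% interval -0.98 to 0.22, edgeR adjusted p = 0.382), and the exact permutation test gave p = 0.4. Mff had the widest interval of the 10 genes. Leaving out either of those livers brought the estimate to -0.16 or -0.14.

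The fusion genes had the smallest median difference without sign of the 3 roles, 0.14 on the log2 scale, against 0.38 for fission and 0.37 for biogenesis genes. Mfn1, on chromosome 3 from 32529465 to 32579239, encodes a mitofusin, a GTPase that tethers and fuses outer membranes. It was at 46.6, 58.1 and 57.3 CPM in WT and 43.5, 49.6 and 41.3 CPM in CgA-KO. The second and the third WT liver were above all CgA-KO livers, and the first WT liver lay among them. Mean levels were 54.0 ± 6.43 and 44.8 ± 4.28 CPM and the log2 fold change was -0.27 (SE 0.175, 95% interval -0.67 to 0.13, edgeR adjusted p = 0.349), with p = 0.2 in the exact permutation test. With library size alone in place of TMM factors the estimate was 0.01.

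Mfn2, on chromosome 4 from 147873599 to 147904704, encodes the other mitofusin, which also tethers mitochondria to the endoplasmic reticulum. Per liver it measured 71.3, 93.4 and 71.0 CPM in WT and 87.2, 76.7 and 84.8 CPM in CgA-KO. The WT livers spanned the whole range and enclosed the CgA-KO livers. Mean levels were 78.6 ± 12.9 and 82.9 ± 5.49 CPM, and the log2 fold change was 0.08 (SE 0.189, 95% interval -0.35 to 0.50, edgeR adjusted p = 0.828, exact permutation p = 0.6). Leaving out single livers moved the estimate between 0.003 (without the third WT liver) and 0.22 (without the second WT liver), and it was 0.17 without the second CgA-KO liver.

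Opa1, on chromosome 16 from 29579334 to 29654884, encodes the GTPase that fuses inner membranes and shapes the cristae. It was at 57.2, 77.3 and 71.2 CPM in WT and 67.7, 52.0 and 67.1 CPM in CgA-KO. The genotypes overlapped, with the lowest value in the second CgA-KO liver and the next lowest in the first WT liver. The log2 fold change was -0.14 (SE 0.198, 95% interval -0.59 to 0.31, edgeR adjusted p = 0.687, exact permutation p = 0.5). Its sign was not stable: the estimate was 0.01 without the second CgA-KO liver and 0.15 with library size alone.

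Of the biogenesis regulators, Ppargc1a had the highest estimate of the 10 genes and the lowest p, without passing the adjusted test. The gene lies on chromosome 5 from 51454250 to 51567726. Per liver it measured 10.2, 7.79 and 13.4 CPM in WT and 15.1, 17.7 and 14.0 CPM in CgA-KO. All CgA-KO livers were above all WT livers, with the third liver of each genotype less than 1 CPM apart. Mean levels were 10.5 ± 2.81 and 15.6 ± 1.90 CPM, and the log2 fold change was 0.58 (SE 0.240, 95% interval 0.04 to 1.12), a 1.49-fold difference. The unadjusted p was 0.0392 and the adjusted p 0.149 in edgeR, and the exact permutation test gave p = 0.1. Of the 10 intervals, only this one left out 0 and only this one reached a 2-fold difference. Ppargc1a ranked 3644 of 13867 genes by p. Leaving out each liver in turn gave 0.40 to 0.80.

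Because PGC-1α follows feeding and the time of day, fasting-responsive and clock genes were read beside it. Of 9 fasting-responsive liver genes, 1 was called: Igfbp1, a binding protein of insulin-like growth factors, rose (log2 fold change 3.16, edgeR adjusted p = 0.0125). The gluconeogenic targets of PGC-1α had log2 fold changes of 0.08 for Pck1 and 0.14 for G6pc, with the genotypes overlapping for both. Of 10 clock genes, 7 were called. Arntl and Clock, of the activating arm, rose by 4.44 and 1.03 on the log2 scale, while Per3 and Dbp fell by 3.16 and 2.80. The labels give neither the hour of collection nor the feeding state, so a difference in either between the groups cannot be told apart from genotype.

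Tfam, on chromosome 10 from 71225464 to 71238280, encodes the packaging and transcription factor of mitochondrial DNA. It was at 42.0, 69.0 and 51.2 CPM in WT and 42.0, 34.7 and 49.1 CPM in CgA-KO. The genotypes overlapped, and as for Mff the extremes were the second WT liver and the second CgA-KO liver. The log2 fold change was -0.37 (SE 0.228, 95% interval -0.89 to 0.15, edgeR adjusted p = 0.322, exact permutation p = 0.3), and it was -0.16 without the second WT liver and -0.21 without the second CgA-KO liver.

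Nrf1, on chromosome 6 from 30047988 to 30153458, encodes nuclear respiratory factor 1, an activator of respiratory chain genes and of Tfam. Per liver it measured 8.33, 7.83 and 9.83 CPM in WT and 8.03, 12.3 and 9.77 CPM in CgA-KO. The second CgA-KO liver was above the rest and the other 5 lay close together. The log2 fold change was 0.21 (SE 0.233, 95% interval -0.32 to 0.74, edgeR adjusted p = 0.596, exact permutation p = 0.5). The estimate was 0.075 without the second CgA-KO liver, 0.38 without the first CgA-KO liver and 0.14 without the second WT liver.

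Sirt1, on chromosome 10 from 63319005 to 63381704, encodes an NAD-dependent deacetylase. It was at 18.8, 12.4 and 16.1 CPM in WT and 13.9, 11.0 and 11.5 CPM in CgA-KO. The second WT liver fell among the CgA-KO livers and the other WT livers were above all of them. Mean levels were 15.7 ± 3.23 and 12.1 ± 1.57 CPM and the log2 fold change was -0.37 (SE 0.218, 95% interval -0.87 to 0.12, edgeR adjusted p = 0.297, exact permutation p = 0.2). Without the first WT liver the estimate was -0.20. The estimates for Sirt1 and for its substrate's gene Ppargc1a had opposite signs.

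**Figure D2:**
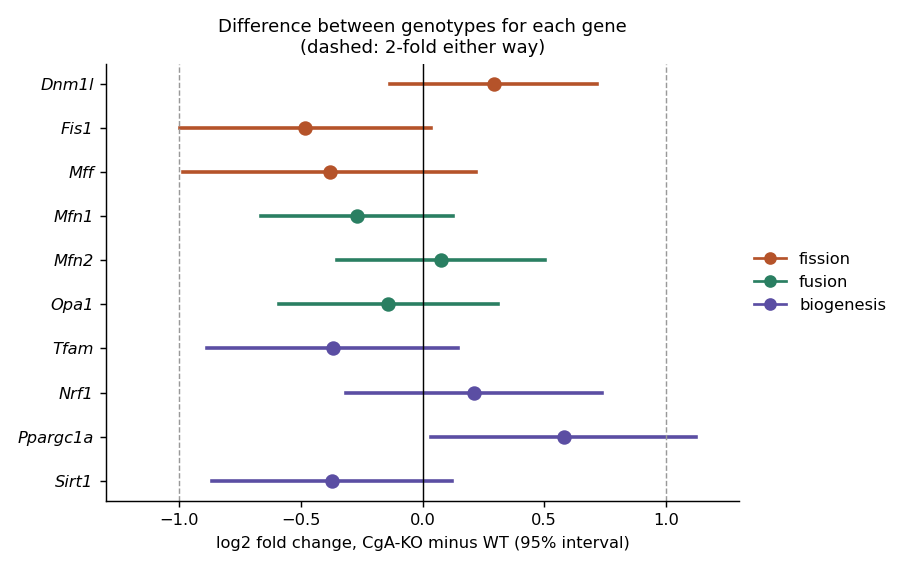
For each gene the point gives the log2 fold change, CgA-KO minus WT, and the bar its 95% interval from edgeR's fit over all genes, coloured by role; dashed lines mark a 2-fold difference either way. All intervals but that of Ppargc1a (0.04 to 1.12) include 0.

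The study also measured Dnm1l (as Drp1), Fis1, Mfn1, Opa1, Sirt1, Sirt6 and Ppargc1a by PCR in liver. Sirt6, a nuclear deacetylase, was read from the count table for that reason. It was at 4.39, 2.98 and 3.43 CPM in WT and 5.01, 3.93 and 3.23 CPM in CgA-KO, with the genotypes overlapping. The log2 fold change was 0.18 (SE 0.305, 95% interval -0.51 to 0.87, edgeR adjusted p = 0.742). The 13 mRNAs encoded by mitochondrial DNA were not analysed here.

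Levels were compared between genes per kb of merged exons. Over all 6 livers, Fis1 had the highest level with 33.2 CPM per kb (range 26.1 to 52.1), and it exceeded every other gene in every liver. Mfn2 followed at 15.5 (13.7 to 18.0) and Tfam at 10.8 (7.81 to 15.6). Next came Opa1 at 8.31, Mfn1 at 8.08 and Dnm1l at 6.71, and then Mff at 4.52. The nuclear regulators were lowest, with Sirt1 at 2.62, Ppargc1a at 1.98 and Nrf1 at 0.909 CPM per kb. Only Fis1 and Mfn2, of all neighbours in this order, had ranges that did not overlap. Within each liver, Mfn2 was above Tfam in 6 of 6 livers and Mff above Sirt1 in 6 of 6, whereas Opa1 was above Mfn1 in 3 of 6. Sirt1 was above Ppargc1a in 5 of 6 livers, and Ppargc1a took the eighth place in CgA-KO and the ninth in WT. With the longest transcript as the length, Mff rose from place 7 to place 4, at 11.3 CPM per kb, since its merged exons span 9.757 kb and its longest transcript 3.918 kb. Fis1, Mfn2 and Tfam kept the first places under that length.

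**Figure D3:**
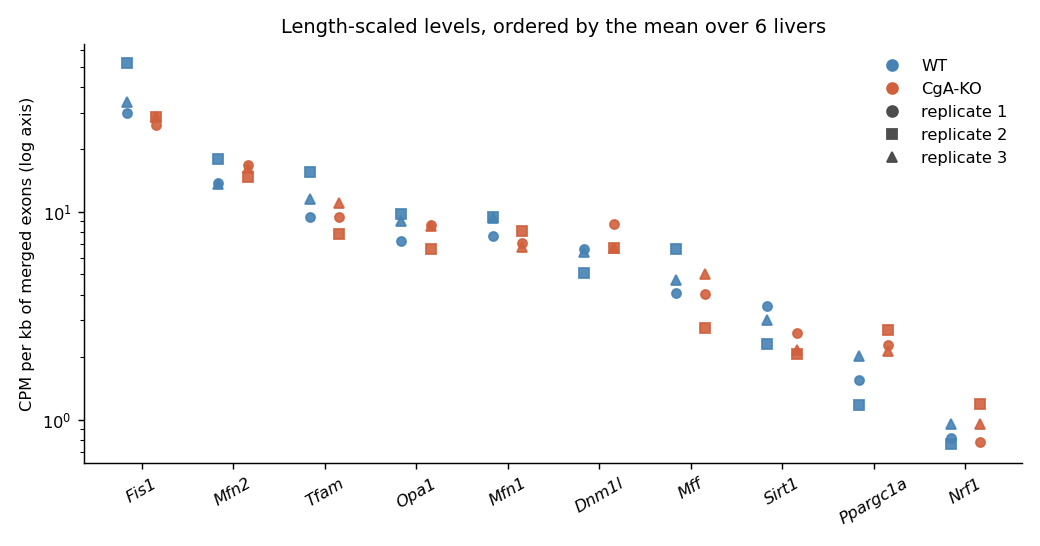
The vertical log axis gives CPM per kb of merged exons and the horizontal axis the 10 genes in order of their mean over 6 livers, with 1 point per liver. Fis1 lies above all other genes, and Ppargc1a and Nrf1 lie lowest.

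Ratios within a liver do not depend on its scaling and were read as descriptions, with no test. The summed level of the 3 fusion genes over that of the 3 fission genes, per kb, was 0.703, 0.585 and 0.712 in WT and 0.836, 0.775 and 0.785 in CgA-KO. All CgA-KO livers were above all WT livers. Per kb of the longest transcript the ratio was 0.490, 0.398 and 0.495 in WT and 0.589, 0.548 and 0.540 in CgA-KO. The genotypes did not overlap there either, and Fis1 was the highest gene under that length too. The sum of the fission genes was mostly Fis1: with Fis1 left out, the ratio was 2.69, 3.19 and 2.89 in WT and 2.55, 3.11 and 2.70 in CgA-KO, where the genotypes overlapped and the mean was lower in CgA-KO. With the 3 genes of each role given equal weight, as the mean log2 CPM of fusion minus fission genes, WT had 0.51 ± 0.05 and CgA-KO 0.59 ± 0.10, and the genotypes overlapped. The measures without Fis1 and with equal weight were added after the data were seen. Mfn1 over Mfn2 was 0.555, 0.528 and 0.685 in WT and 0.424, 0.549 and 0.414 in CgA-KO, also with overlap. Dnm1l over Fis1 was 0.219, 0.0976 and 0.189 in WT and 0.334, 0.235 and 0.235 in CgA-KO, without overlap. Ppargc1a over Tfam was 0.164, 0.0759 and 0.176 in WT and 0.243, 0.344 and 0.192 in CgA-KO, also without overlap.

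Across the 6 livers some of the genes varied alike. The log2 CPM of Mff and Tfam had a Pearson r of 0.968, Mff and Opa1 of 0.904 and Opa1 and Tfam of 0.894. For these 3 genes the second WT liver was highest under TMM scaling, where its factor was 0.756, and the second CgA-KO liver lowest. The most opposed were Dnm1l and Fis1 with r = -0.883. These values share 6 libraries, their depth and 1 genotype difference, and are descriptions only. The genes most like each were picked from 9926 genes with a mean of at least 5 CPM. Each r given next is among the highest of 9926 values over only 6 livers, so high values come with the search. Shared control of these genes was not tested. The gene most like Fis1 was Mrpl43 (r = 0.9985), a protein of the mitochondrial ribosome, followed by Rpl27a (0.9977), a protein of the cytosolic ribosome. Tfam was most like Lsm1 (0.997) and Mrps17 (0.9964), and Opa1 like Psme4 (0.9905) and Casd1 (0.9877). Mfn1 was most like Cebpa (0.9952), a hepatocyte transcription factor, and Atp1b1 (0.9876), and Mfn2 like Arrdc4 (0.9817) and Lsm3 (0.981). For Ppargc1a the closest were Hcfc1 (0.9904), itself on the list of biogenesis regulators, and Pgs1 (0.9891), the synthase that starts cardiolipin synthesis. Dnm1l was most like Unk (0.9961) and Vps39 (0.9958), Sirt1 like Asb13 (0.9914) and Plekha6 (0.9906), and Nrf1, with the lowest values, like Ccdc125 (0.9677) and Mapkapk3 (0.9633).

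The remaining genes of the same pathways were described as 5 lists, by counts and medians. Of 13 other fission genes, 12 were tested and 1 was called, and it was lower in CgA-KO, where 3.84% of all genes were called lower. Mtfp1, an inner membrane protein that promotes fission, was at 17.1, 23.0 and 23.0 CPM in WT and 9.47, 10.5 and 9.64 CPM in CgA-KO. Every CgA-KO liver was well below every WT liver. Mtfp1 fell by 1.10 on the log2 scale (SE 0.195, 95% interval -1.54 to -0.65, edgeR adjusted p = 0.0112), and without the third WT liver the log2 fold change was -1.03 and the adjusted p 0.0640. Spire1, an actin nucleator with a mitochondrial isoform, was the next by p, at 1.79, 0.596 and 0.593 CPM in WT and 6.64, 1.11 and 1.79 CPM in CgA-KO. The first liver of each genotype was the highest of its group, the genotypes overlapped, and the edgeR adjusted p was 0.161. The log2 fold change of Spire1 was 1.75, and 0.63 without the first CgA-KO liver. The median log2 fold change of the list was -0.21.

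Other fusion and inner membrane genes were lower in CgA-KO by estimate in 13 of 15, with a median of -0.38 on the log2 scale, where 50.6% of all genes were lower and their median was -0.01. The call on this list was 1 gene, lower in CgA-KO, where 3.84% of all genes were called lower. Pld6, a mitochondrial surface phospholipase that promotes fusion, was at 1.88, 2.30 and 3.60 CPM in WT and 1.02, 0.856 and 1.08 CPM in CgA-KO, from 21 to 85 counts per library. The genotypes did not overlap. Pld6 fell by 1.41 on the log2 scale (SE 0.393, 95% interval -2.30 to -0.52, edgeR adjusted p = 0.0489), at the edge of the threshold. The call was lost in 11 of 15 alternatives, 1 of them a threshold of 0.01 on the same fit. Over all 15 the log2 fold change stayed between -1.55 and -1.10. Miga2, an outer membrane partner of Pld6 in fusion, was at 83.3, 67.8 and 58.1 CPM in WT and 50.1, 34.9 and 40.7 CPM in CgA-KO without overlap. Its log2 fold change was -0.73 (SE 0.212), with an adjusted p of 0.0548 in edgeR, 0.0168 in DESeq2 and 0.0495 in limma-voom.

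The other biogenesis regulators had a median difference of 0.01 on the log2 scale. Of these 19 genes 18 were tested and 0 called in edgeR, where 12.4% of all genes were called. At an unadjusted p under 0.05 there were 5 of 18, against 29.1% of all genes. DESeq2 called 3 genes of this list, and 2579 of the 19693 genes given to it. Esrra, the orphan receptor that works with PGC-1α, was at 36.4, 41.7 and 46.3 CPM in WT and 29.8, 28.0 and 28.0 CPM in CgA-KO. Ppara, the receptor that drives fatty acid oxidation, was at 99.0, 83.8 and 87.3 CPM in WT and 64.4, 42.8 and 61.7 CPM in CgA-KO. For both genes all CgA-KO livers were below all WT livers. Their log2 fold changes were -0.54 (SE 0.163, edgeR adjusted p = 0.0644) and -0.68 (SE 0.209, edgeR adjusted p = 0.0666), and DESeq2 gave adjusted p of 0.0370 and 0.0231. Both estimates thus had the opposite sign to that of Ppargc1a, their coactivator.

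Genes that copy and transcribe mitochondrial DNA gave 0 calls of 20 in edgeR, with a median difference of -0.21, close to that of the 10 regulators. At an unadjusted p under 0.05 there were 6 of 20, against 29.1% of all genes. Lowest by p were Polg2, the accessory subunit of the mitochondrial DNA polymerase, and Slirp, which stabilises mitochondrial mRNAs. Polg2 was at 11.6, 9.23 and 16.2 CPM in WT and 7.71, 7.61 and 6.90 CPM in CgA-KO (log2 fold change -0.73, SE 0.248, edgeR adjusted p = 0.0871). Slirp was at 25.1, 48.4 and 26.2 CPM in WT and 20.2, 14.2 and 22.4 CPM in CgA-KO (log2 fold change -0.82, SE 0.290, edgeR adjusted p = 0.101). Neither gene overlapped between the genotypes, and Slirp, like Tfam, was highest in the second WT liver and lowest in the second CgA-KO liver. The estimate for Slirp was -0.44 without the second WT liver, and that for Polg2 was -0.49 without the third WT liver.

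Mitophagy genes, which mark damaged mitochondria for removal, gave 0 calls among the 15 of 16 genes tested in edgeR, with a median of -0.27. At an unadjusted p under 0.05 there were 3 of 15, against 29.1% of all genes. Ulk1, the kinase that starts autophagy, was at 103, 78.0 and 99.1 CPM in WT and 62.9, 62.8 and 60.8 CPM in CgA-KO. Fkbp8, a mitophagy receptor of the outer membrane, was at 236, 266 and 262 CPM in WT and 155, 186 and 157 CPM in CgA-KO. Both were without overlap, with log2 fold changes of -0.58 (SE 0.182, edgeR adjusted p = 0.0687) and -0.62 (SE 0.196, edgeR adjusted p = 0.0722). DESeq2 called both, with adjusted p of 0.0159 and 0.00654, where it called 2579 of the 19693 genes given to it.

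**Figure D4:**
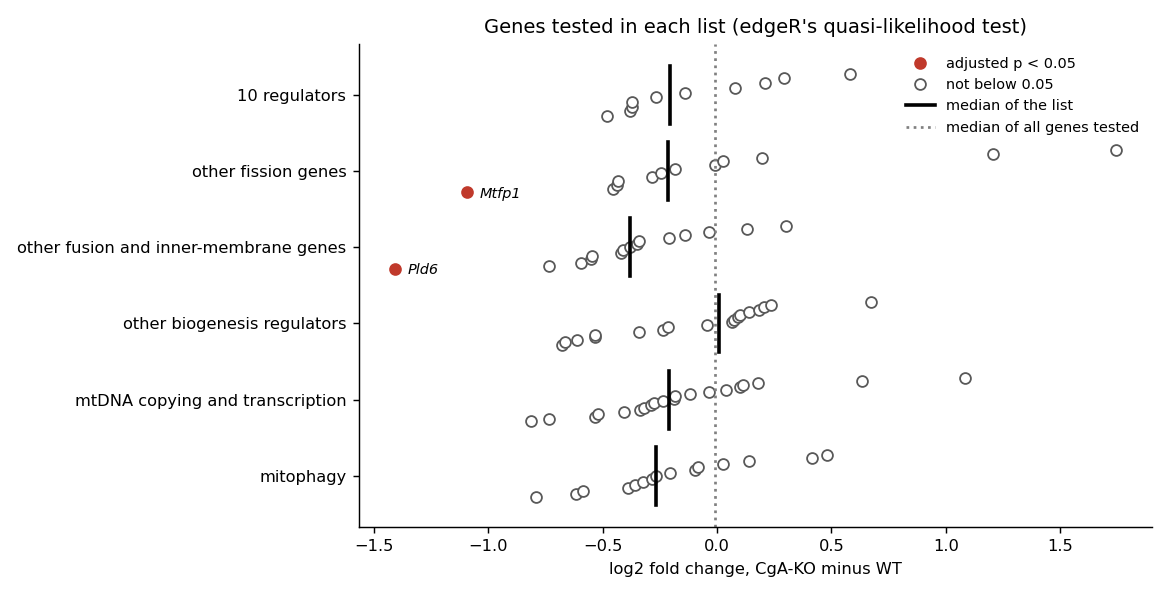
Each circle is 1 gene tested, placed by its log2 fold change (CgA-KO minus WT), with the list named on the left; filled circles have an adjusted p under 0.05 in edgeR's test, black bars give the median of each list and the dotted line that of all genes. The filled circles are Mtfp1 and Pld6, and the medians run from -0.38 to 0.01.

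How the libraries were scaled moved all of these values together. Library size alone, without TMM factors, moved the 10 regulators from a median of -0.20 to 0.08 and all genes from -0.01 to 0.26, on the log2 scale. Relative to all genes the regulators thus stayed slightly lower under both. The split of called genes also moved, from 69.1% to 86.6% higher in CgA-KO. Under library size alone the estimate was higher in CgA-KO for 6 of the 10 genes and 0 of 10 were called.

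**Figure D5:**
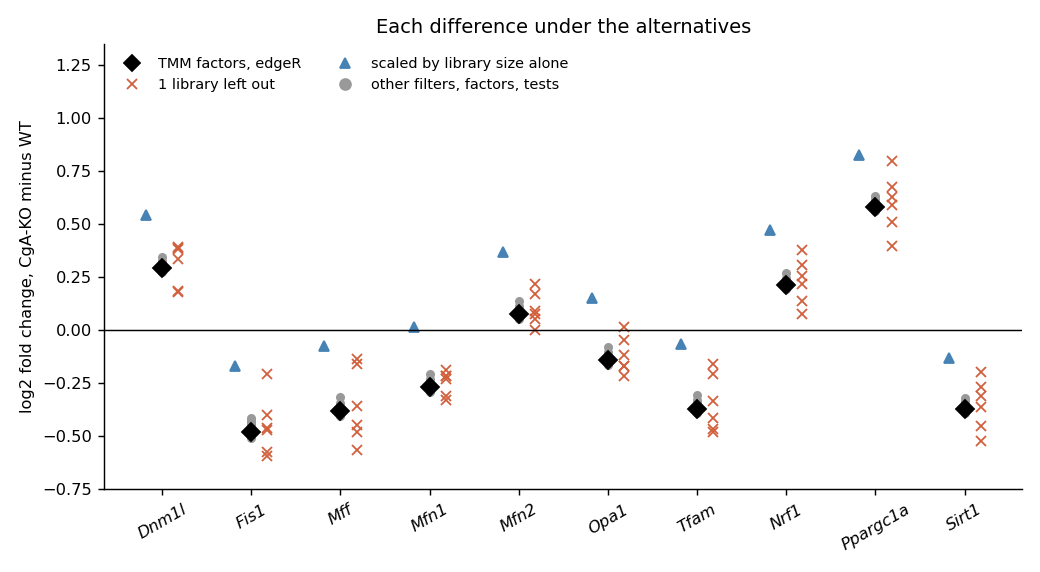
The vertical axis gives the log2 fold change of each of the 10 genes, CgA-KO minus WT, with TMM factors and edgeR (diamonds), with 1 liver left out (crosses), with library size alone (triangles) and with other filters, factors or tests (grey circles). Triangles lie above the diamonds for every gene, and only Mfn1 and Opa1 have points on both sides of 0.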

How the data were processed

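Poly(A)-selected liver RNA from 3 WT and 3 CgA-KO mice was sequenced, with 1 library per mouse. The authors quantified the reads with Salmon v1.4.0 against the GRCm38 transcriptome and deposited whole-number counts per gene symbol, not scaled for library size. The step from transcripts to genes is not given in the sources used here.

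Counts were analysed in R 4.3.3 with edgeR 4.0.16 (filterByExpr with a minimum count of 10, TMM factors, robust quasi-likelihood fits, two-sided tests), with Benjamini-Hochberg adjustment over 13867 genes and calls at an adjusted p under 0.05. The SE is the log2 fold change over the root of its F statistic, so intervals are approximate. Log2 CPM used a prior count of 2. DESeq2 1.42.0 and limma-voom 3.58.1 were alternatives, beside other factors, filters and livers left out. Scripts were tested on simulated data. Lengths and coordinates are from GENCODE annotation of GRCm38. Replicates of a genotype differed by more than sampling noise. A count of 3, the lowest level taken as seen, was 0.0965 to 0.284 CPM, which covers counting error only.

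The 10 genes and all gene lists were chosen with earlier results of these data known. The text names the 10 genes, Sirt6, in each pathway list the called genes, or the 2 of smallest p where fewer than 2 were called, and for each of the 10 genes the 2 genes of highest correlation. The genes most like Mff are not reported here. Clock and fasting-responsive genes were named after their values were seen.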

Additional observations from a re-analysis of the deposited data

How the results depend on the processing

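Under all 15 alternatives, 0 of the 10 genes were called, and the estimates of 8 kept their sign. The exceptions were Mfn1 (0.014 with library size alone) and Opa1 (0.15 with library size alone, 0.014 without the second CgA-KO liver, -0.22 to 0.014 over single livers left out). The number of genes called in all, 1726, was 360 at a threshold of 0.01, and it ran from 394 to 2126 as each liver was left out: 841 without the second WT liver, 394 without the third, 744 without the first CgA-KO liver and 976 without the second.

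DESeq2 called 2579 of the 19693 genes given to it, and limma-voom 1821 of 13867. Of other fission genes, 0 were called without the third WT liver and at 0.01 (0 to 1 as livers were left out). Of other fusion and inner membrane genes, 2 were called by DESeq2 and by limma-voom, and 0 to 1 as livers were left out. The count for that list was 0 with library size alone, upper-quartile factors, a filter of 1 count in total or in every library, or a threshold of 0.01. Of other biogenesis regulators, 3 were called by DESeq2, and 0 to 1 as livers were left out, the 1 without the first WT liver. Of mitophagy genes, 2 were called by DESeq2, 1 with library size alone and 0 to 1 as livers were left out, the 1 without the second WT liver. The cause was not tested.

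The labels give replicate numbers but do not say whether same-numbered livers belong together. Deviations from the genotype mean had correlations of 0.199, 0.0127 and -0.0659 between same-numbered livers. Between livers of different number they ran from -0.264 to 0.234. With 3 livers a group, these values cannot decide whether same-numbered livers shared a step of the work. With the replicate block, 1498 genes were called in all, 0 of the 10 genes and 0 of the other fusion and inner membrane genes.

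Per kb of the longest transcript, levels were 60.1 for Fis1, 18.6 for Mfn2, 11.3 for Mff, 10.8 for Mfn1, 10.5 for Opa1, 8.80 for Dnm1l and 2.31 for Nrf1. The difference in the fusion to fission ratio was -0.136 without Fis1 and 0.075 on the log2 scale with equal weights. With 3 livers a group, the intervals of the 10 genes reached between 0.40 and 0.60 on the log2 scale to either side, which limits the differences that could be seen.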
